A study of Mus musculus with 12 samples.

Results

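Signals of Eph receptors and ephrins, the contact-dependent proteins that sort epithelial cells along the crypt, were compared in crypts captured by laser microdissection from proximal small intestine. The genes are 5 receptors of the EphB class (*Ephb1*, *Ephb2*, *Ephb3*, *Ephb4* and *Ephb6*), the receptor *Epha2*, the B-type ligands *Efnb1* and *Efnb2* and the A-type ligands *Efna1* and *Efna4*. They were chosen by name, and each was read from the brightest row of the array table that carries its symbol alone. Of the 10 genes, 9 were measured in this way, out of 22180 genes with such a row, and *Ephb2* was not analysed here. Of the 9 genes, 7 had a mean signal above the median of all rows, 2.71 on the log2 scale, and *Ephb1* and *Ephb6* lay below it. One group was Zfp148gt/+APCMin/+ mice (n = 6), which carry a gene trap in 1 copy of *Zfp148*, a zinc finger transcription factor, in every tissue. The other was Zfp148+/+APCMin/+ mice (n = 6, controls), with both *Zfp148* copies intact. Both groups carry the Min mutation in 1 copy of *Apc*, which truncates the protein and leads to intestinal adenomas, and none was treated. All were 12 weeks old, on a mixed strain background, with 1 array per mouse, and litter and sex were not used here.

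Eph receptors are receptor tyrosine kinases that bind ephrins on a neighboring cell, and both partners can signal upon contact, often as repulsion. In the intestine EphB2 and EphB3 are induced by β-catenin and TCF factors and are most abundant toward the crypt base, while ephrin-B1 and ephrin-B2 are most abundant toward the villus. The opposed gradients keep proliferating and differentiated cells apart and hold Paneth cells at the crypt base. EphB receptors are frequently lost as colorectal adenomas progress.

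*Zfp148* signal was 5.01 to 5.95 in Zfp148gt/+APCMin/+ mice and 6.06 to 6.88 in controls, so the groups did not overlap. Across all 33793 rows of the table, limma called 0 at an adjusted p under 0.05 (0%), while 2284 (6.76%) had an unadjusted p under 0.05 and the methods' t-test also called 0 after adjustment. Defining crypt markers had signal above the median of all rows for 9 of 10 stem cell, 9 of 9 Paneth cell and 9 of 9 transit-amplifying genes. So did 9 of 12 villus enterocyte, 9 of 9 fibroblast and matrix, 8 of 8 smooth muscle and 11 of 11 endothelial markers. In whole captured tissue, fewer cells of a type and less RNA per cell cannot be told apart. The interquartile range of an array (IQR), a measure of how far its bright and dim signals lie apart, averaged 2.77 with an SD of 0.093 in Zfp148gt/+APCMin/+ mice. The controls averaged 2.92 with an SD of 0.070, and a two-sided exact permutation test of the difference gave p = 0.0173.

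None of the 9 genes passed the test of genotype after adjustment, and *Efnb1* had the smallest p. In limma 0 of 9 passed over all rows (adjusted p 0.725 to 0.999), and 1 of 9, lower in Zfp148gt/+APCMin/+ mice, was nominal (unadjusted p under 0.05), against 2.88% of all rows in that direction and 3.88% in the other. Means were higher for 5 genes and lower for 4, and 45.2% of all rows had a lower mean. In 0 of 9 genes were the groups free of overlap, as they were in 0.308% of rows. Of the 7 brighter genes 3 had a lower mean and 1 was nominal, where among rows above the median signal 58.4% had a lower mean and 7.49% were nominal (5.08% lower, 2.41% higher). The median log2 fold change over the 9 genes was 0.0035, beside 0.020 over all rows and -0.039 over those above the median signal.

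Of the ligands, *Efnb1* and *Efnb2* encode ephrin-B1 and ephrin-B2, transmembrane ephrins that bind EphB receptors and can signal back into the cell that carries them. Their correlation over the mice, given with the other relations, was the highest of those computed, so the 250 bases before their transcription starts are printed for comparison. They come from RefSeq, build GRCm38.p6, with *Efnb1* at chrX:99135811-99136060 on the plus strand and *Efnb2* at chr8:8661243-8661492 on the minus strand. Both are written 5′ to 3′, with capitals for matches on either strand to the GC box GGGCGG, the element bound by Sp1-type factors.
*Efnb1*: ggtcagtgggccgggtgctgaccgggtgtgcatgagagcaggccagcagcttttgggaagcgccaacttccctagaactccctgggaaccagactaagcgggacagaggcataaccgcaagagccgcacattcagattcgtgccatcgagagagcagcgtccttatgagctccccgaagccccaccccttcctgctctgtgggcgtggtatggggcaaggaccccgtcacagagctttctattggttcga
*Efnb2*: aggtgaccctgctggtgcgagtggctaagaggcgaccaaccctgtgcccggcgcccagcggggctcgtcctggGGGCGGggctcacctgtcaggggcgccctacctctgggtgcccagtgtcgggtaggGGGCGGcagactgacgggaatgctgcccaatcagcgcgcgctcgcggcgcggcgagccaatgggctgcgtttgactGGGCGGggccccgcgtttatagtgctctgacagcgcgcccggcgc
The *Efnb2* sequence held 3 GC boxes and the *Efnb1* sequence 0, and at least 1 is found in 32.7% of 32851 RefSeq windows of this length. Neither sequence held CTTTGAT, a TCF-type element that does not overlap the GC box, on either strand, as 3.21% of the windows do. In windows of this length for the other genes, GC boxes were also found for *Ephb3*, *Ephb4*, *Ephb6*, *Epha2* and *Efna1*. None was found for *Ephb1*, *Ephb2* or *Efna4*. A match is letters only and shows no binding.

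*Efnb1* signal had a lower mean in Zfp148gt/+APCMin/+ mice, and 4 of 6 lay below every control. Its log2 signal ran from 6.27 to 7.32 with a median of 6.63 in Zfp148gt/+APCMin/+ mice, and from 6.95 to 7.40 with a median of 7.05 in controls. The lowest were mice 897 (6.27), 891 (6.52), 892 (6.52) and 893 (6.74), while mouse 911 (7.32) lay within the range of the controls and mouse 783 (6.97) at its lower end. The mean was 6.72 ± 0.38 (SD, n = 6) and 7.11 ± 0.17 (SD, n = 6), which put the log2 fold change at -0.38 (95% confidence interval -0.73 to -0.041) or 0.766 of the control level (0.604 to 0.972). By limma the unadjusted p was 0.0312 and the adjusted p 0.725, and the exact permutation test (two-sided, unadjusted) gave p = 0.0476 where 0.0022 is the smallest value it can give. Without mouse 911 the log2 fold change was -0.50 and without mouse 897 it was -0.29. *Efnb1* signal and array IQR were correlated at r = 0.817 over the 12 mice. With array IQR as a covariate the log2 fold change was -0.0037 (-0.40 to 0.39), and with fibroblast and matrix markers instead -0.23 (-0.69 to 0.24). All 9 of these markers had a lower mean in Zfp148gt/+APCMin/+ mice, with *Col1a2* at -0.85 and *Col1a1* at -0.47. Their mean signal ran from 6.40 to 7.23 against 6.82 to 7.68 in controls (exact permutation p = 0.0238, unadjusted). Array IQR and these markers both differed by genotype, so their part in the *Efnb1* difference and that of genotype cannot be told apart. The mean of villus enterocyte markers was 4.84 to 5.60 against 4.76 to 5.74 (exact permutation p = 0.885), and with them as a covariate *Efnb1* was at -0.38.

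The groups overlapped for *Efnb2*. Its log2 signal ran from 4.59 to 5.69 with a median of 5.25 in Zfp148gt/+APCMin/+ mice and from 4.94 to 5.59 with a median of 5.51 in controls. Mice 897 (4.59) and 892 (4.88) lay below every control and mouse 911 (5.69) above. The log2 fold change was -0.18 (95% confidence interval -0.58 to 0.22), or 0.13 (-0.41 to 0.67) with array IQR and -0.076 (-0.64 to 0.49) with fibroblast and matrix markers as a covariate. With 1 mouse left out it lay between -0.28 (without mouse 911) and -0.057 (without mouse 897). *Efnb2* also marks arterial endothelium in general, and 11 endothelial markers averaged 3.67 ± 0.25 (SD, n = 6) in Zfp148gt/+APCMin/+ mice and 3.84 ± 0.29 (SD, n = 6) in controls. With these markers as a covariate *Efnb2* was at -0.18.

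Of the 9 genes the A-type ligands had the largest SD within a genotype. *Efna1*, which encodes ephrin-A1, a lipid-anchored ligand of EphA2, ran from 5.14 to 6.72 with a median of 5.97 in Zfp148gt/+APCMin/+ mice and from 4.99 to 6.52 with a median of 5.90 in controls. Its SD within a genotype, 0.612, was larger than that of 94.8% of all rows. The log2 fold change was 0.049 (95% confidence interval -0.63 to 0.73), moving to 0.71 (-0.12 to 1.55) with array IQR as a covariate and to -0.14 without control mouse 889. *Efna4*, which encodes another lipid-anchored ligand, ran from 3.32 to 6.05 with a median of 3.95 and from 3.36 to 5.07 with a median of 4.26. Mouse 892 stood highest at 6.05, and the next was control mouse 782 at 5.07. For *Efna4* the SD within a genotype was 0.827, larger than in 97.9% of rows, and the log2 fold change 0.0035 (-0.91 to 0.91), a value that ran from -0.35 with array IQR to 0.75 (-0.35 to 1.84) with fibroblast and matrix markers as a covariate. Its sign turned under 4 alternatives (-0.040 with centred arrays), and it was -0.36 without mouse 892. *Efna1* and *Efna4* lie close together on chromosome 3 with *Efna3*, and the correlation of *Efna1* with *Efna4* over the 12 mice was r = -0.126 (permutation p = 0.706, adjusted p = 0.776) and rho = -0.0979 (permutation p = 0.768, adjusted p = 0.869), or r = 0.0705 without the 2 mice farthest from the median of *Efna1*.

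Among the receptors, *Ephb3* was tightly grouped in controls and widely spread in Zfp148gt/+APCMin/+ mice. *Ephb3* encodes EphB3, a kinase of crypt base and Paneth cells that, with EphB2, restricts where cells settle. The 6 controls lay between 5.46 and 5.60 with a median of 5.51, and the 6 Zfp148gt/+APCMin/+ mice between 4.58 and 6.04 with a median of 5.29. Mice 891 (4.58), 911 (5.10), 783 (5.25) and 893 (5.33) lay below every control, and mice 892 (5.73) and 897 (6.04) above every control. The mean was 5.34 ± 0.51 (SD, n = 6) against 5.52 ± 0.052 (SD, n = 6), the difference being -0.18 log2 units (95% confidence interval -0.59 to 0.23, limma unadjusted p = 0.367 and adjusted p = 0.863). The exact permutation test of the means gave p = 0.442 (two-sided). Without mouse 891 the log2 fold change was -0.028 and without mouse 897 it was -0.32, and with fibroblast and matrix markers as a covariate -0.024 (-0.59 to 0.55).

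The SD of *Ephb3* was 9.77 times as large in Zfp148gt/+APCMin/+ mice as in controls, where the median over all rows was 1.12 times. Of all rows, 0.0651% had a ratio at least as large, and 0.687% had a smaller SD in controls. In Zfp148gt/+APCMin/+ mice 88.8% of rows had a smaller SD than *Ephb3*. There the SD of *Ephb3*, 0.506, was below that of *Epha2* (0.517), *Efna1* (0.662) and *Efna4* (0.991). This comparison of spread was chosen after the values were seen and has no test, and among the other 8 genes the ratio lay between 0.371 for *Ephb1* and 2.22 for *Efnb1*. *Ephb3* lies on chromosome 16, as *Zfp148* does.

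*Ephb4* encodes EphB4, best known from veins, where it pairs with ephrin-B2. Its log2 signal ran from 6.16 to 6.85 with a median of 6.64 in Zfp148gt/+APCMin/+ mice and from 6.31 to 6.76 with a median of 6.51 in controls, and the groups overlapped. The log2 fold change was 0.033 (95% confidence interval -0.23 to 0.30), turning to -0.011 with each array centred on its median and to -0.22 with array IQR as a covariate. *Epha2*, a receptor of ephrin-A1 that is expressed in many epithelia, ran from 2.27 to 3.54 with a median of 3.10 and from 2.46 to 3.34 with a median of 2.72, with a difference of 0.19 (-0.32 to 0.70). That of *Epha2* lay between 0.086 (without mouse 783) and 0.34 (without mouse 892) with 1 mouse left out, and was 0.080 with fibroblast and matrix markers as a covariate.

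*Ephb1*, a receptor known chiefly from neurons, was dim in every mouse, from 2.33 to 2.57 in Zfp148gt/+APCMin/+ mice with a median of 2.44 and from 1.94 to 2.71 in controls with a median of 2.25. All 6 Zfp148gt/+APCMin/+ mice lay above the control mean of 2.26, but mouse 889 (2.71) was the highest of all and a control. The log2 fold change was 0.18 (95% confidence interval -0.072 to 0.44), turning to -0.012 with array IQR and -0.039 with fibroblast and matrix markers as a covariate, and without mouse 889 it was 0.27 (limma unadjusted p = 0.0138). A second, dimmer row of *Ephb1* was at 0.10 (-0.11 to 0.30). Of 7 enteric neuron and glia markers 6 had a higher mean in Zfp148gt/+APCMin/+ mice, and 5 of the 7 lay below the median signal of all rows. Over all rows 45.2% had a lower mean, and 58.4% of those above the median signal did, so lower means were less frequent among dim rows. The mean of these markers ran from 2.46 to 2.75 in Zfp148gt/+APCMin/+ mice and from 2.30 to 2.69 in controls (exact permutation p = 0.0996, unadjusted). A part of these markers in the *Ephb1* signal was not tested. *Ephb6* encodes a receptor without kinase activity that is known from T cells, and it ran from 2.39 to 2.82 with a median of 2.59 and from 2.49 to 3.08 with a median of 2.61. Its log2 fold change was -0.063 (-0.30 to 0.18), or 0.021 without control mouse 889, which had the highest *Ephb6* signal.

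**Figure D1:**
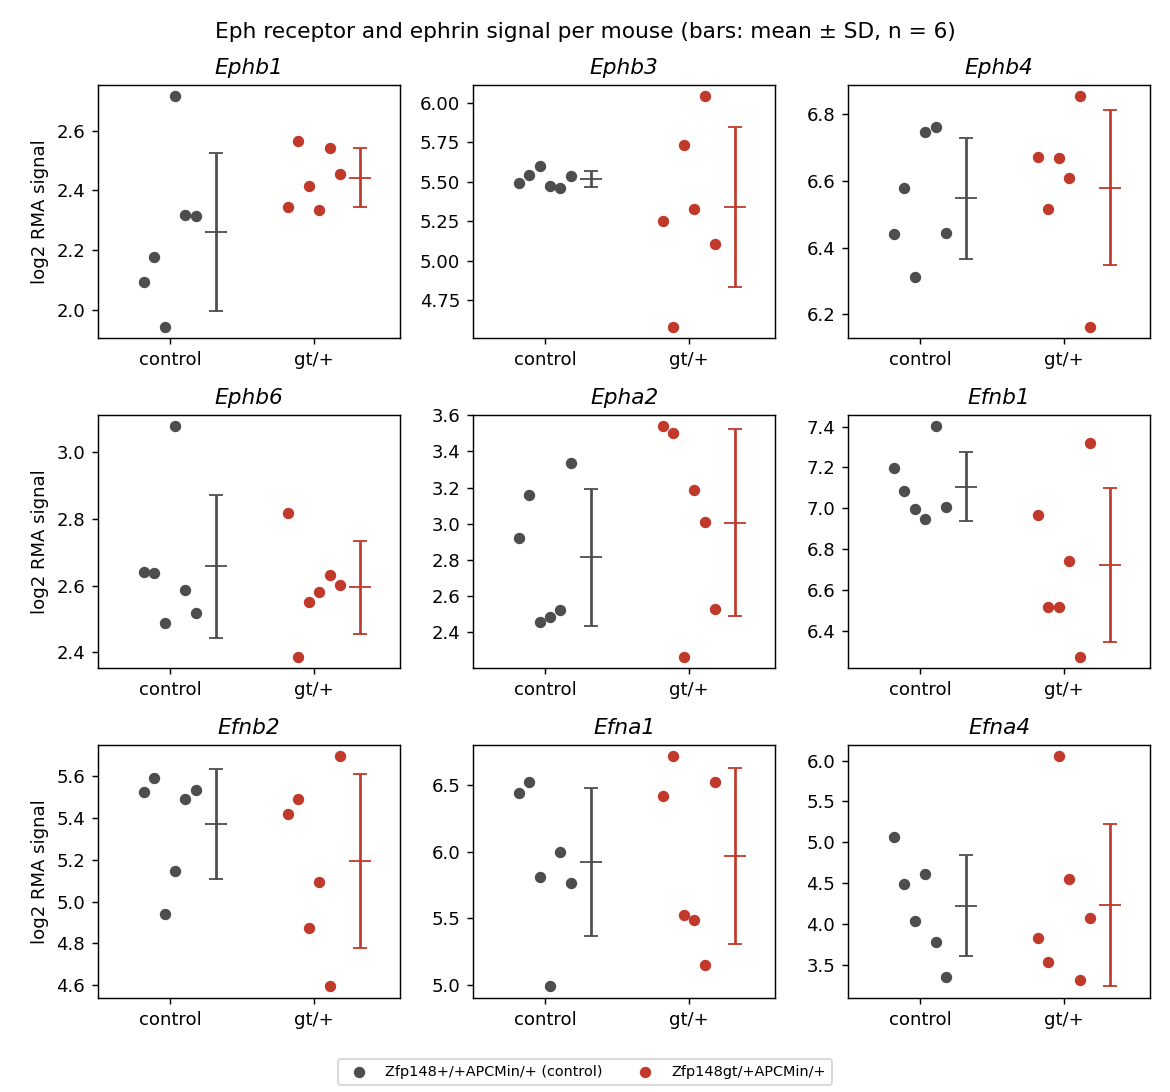
Log2 RMA signal (vertical axis, a separate scale for each gene) of the 9 measured genes, 1 point per mouse in order of mouse number, with mean ± SD beside each group of 6. The 6 controls of *Ephb3* sit between 5.46 and 5.60 while the Zfp148gt/+APCMin/+ mice span 4.58 to 6.04, and for *Efnb1* 4 of 6 Zfp148gt/+APCMin/+ mice lie below every control.

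Seen by mouse, no animal was low or high throughout. Mouse 897 had the lowest of the 12 signals for 3 of the 9 genes (*Efnb1*, *Efnb2* and *Efna4*) and the highest for 2 (*Ephb3* and *Ephb4*). Mouse 891 was lowest for *Ephb3* and *Ephb6* and highest for *Efna1*, and control mouse 889 was highest for *Ephb1* and *Ephb6*. Among controls, mouse 888 was below its genotype mean for 8 of 9 genes, the exception being *Ephb3*.

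**Figure D2:**
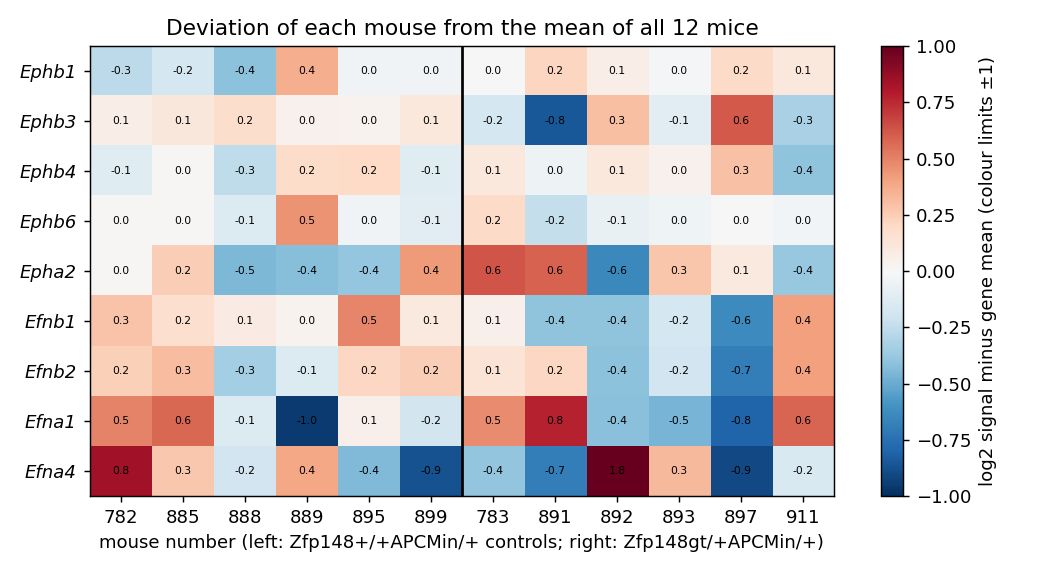
Log2 signal of each gene (rows) in each mouse (columns, controls left of the line) minus the mean of that gene over all 12 mice, with the colour scale limited to 1 log2 unit in each direction. In mouse 897 *Ephb3* stands above its mean while *Efnb1*, *Efnb2* and *Efna1* stand below theirs, and in mouse 891 *Ephb3* stands below its mean and *Efna1* above.

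Because receptor and ligand lie in opposed gradients, 17 relations over the 12 mice were computed, between pairs of these genes and between single genes and the mean of crypt base stem cell, Paneth cell or villus enterocyte markers. None passed after Benjamini-Hochberg adjustment over the 17, by Pearson's r or by Spearman's rho, and 4 and 3 had an unadjusted permutation p under 0.05. *Efnb1* and *Efnb2* were related at r = 0.726 (permutation p = 0.00695, adjusted p = 0.118; rho = 0.762, permutation p = 0.00531, adjusted p = 0.0903), and r was 0.780 without the 2 mice farthest from the median of *Efnb1*. Within genotypes r was 0.50 in controls and 0.803 in Zfp148gt/+APCMin/+ mice. *Ephb3* and *Efnb2* ran in opposite directions, at r = -0.624 (permutation p = 0.0268, adjusted p = 0.152; rho = -0.462, permutation p = 0.133, adjusted p = 0.313). That r was -0.534 without the 2 mice farthest from the median of *Ephb3*, -0.413 within controls and -0.865 within Zfp148gt/+APCMin/+ mice. With array IQR removed from both genes by regression, an alternative chosen after seeing the data, it was -0.815 (permutation p = 0.00193).

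Villus enterocyte markers, such as the intestinal alkaline phosphatase *Alpi* and the apolipoprotein *Apoa4*, were set against the ligands and *Ephb3*. *Efnb2* was related to their mean at r = 0.674 (permutation p = 0.0171, adjusted p = 0.145; rho = 0.643, permutation p = 0.0266, adjusted p = 0.226), and r was 0.881 without the 2 mice farthest from the median of the markers. *Efna1* had r = 0.580 (permutation p = 0.0510, adjusted p = 0.152; rho = 0.601, permutation p = 0.0444, adjusted p = 0.252), or 0.626 without the 2 farthest mice. Within controls and within Zfp148gt/+APCMin/+ mice r was 0.535 and 0.899 for *Efnb2*, and 0.330 and 0.894 for *Efna1*. *Efnb1* with these markers had r = 0.199 (permutation p = 0.533, adjusted p = 0.756; rho = 0.168, permutation p = 0.605, adjusted p = 0.791). *Efnb1* had r = -0.603 with Paneth cell markers (permutation p = 0.0381, adjusted p = 0.152; rho = -0.536, permutation p = 0.0762, adjusted p = 0.295), or -0.398 without the 2 farthest mice.

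For *Ephb3* the relation with villus enterocyte markers was r = -0.558 (permutation p = 0.0538, adjusted p = 0.152; rho = -0.448, permutation p = 0.147, adjusted p = 0.313), and -0.751 without the 2 farthest mice. Within Zfp148gt/+APCMin/+ mice r was -0.976 within controls -0.0542, and whether these differ was not tested. Ordered by falling *Ephb3*, mice 897, 892, 893, 783, 911 and 891 had villus marker means of 4.84, 4.89, 5.18, 5.21, 5.42 and 5.60. In controls the villus marker mean covered a range as wide, 4.76 to 5.74, while *Ephb3* stayed between 5.46 and 5.60. With stem cell and Paneth cell markers *Ephb3* had r = 0.349 (permutation p = 0.266, adjusted p = 0.411; rho = 0.294, permutation p = 0.353, adjusted p = 0.545) and r = 0.477 (permutation p = 0.114, adjusted p = 0.242; rho = 0.522, permutation p = 0.0868, adjusted p = 0.295).

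**Figure D3:**
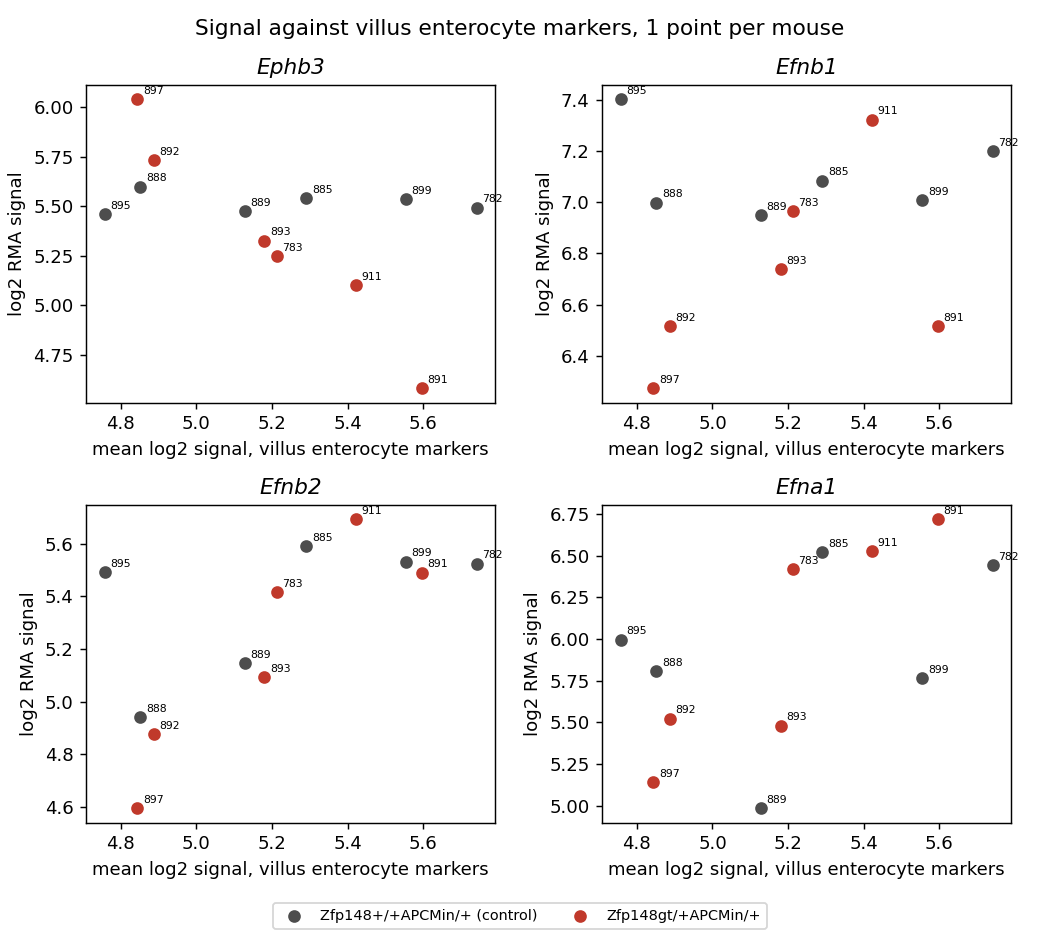
Log2 RMA signal of *Ephb3*, *Efnb1*, *Efnb2* and *Efna1* (vertical axes) against the mean log2 signal of 12 villus enterocyte markers (horizontal axes), with 1 numbered point per mouse. In Zfp148gt/+APCMin/+ mice *Ephb3* lies from 6.04 in mouse 897 down to 4.58 in mouse 891 as the marker mean goes from 4.84 to 5.60, and in controls it stays near 5.5.

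Outside the 9 genes, the other 12 Eph receptors and ephrins were all measured, and *Epha1* and *Epha4* had the smallest limma p. Again 0 passed in limma over all rows, 1 was nominally higher and 2 nominally lower, with 8 higher and 4 lower means and a median log2 fold change of 0.035. Over all rows 3.88% were nominally higher, 2.88% were nominally lower and 45.2% had a lower mean. *Epha1*, an epithelial receptor that was the founding member of the family, ran from 4.38 to 4.82 with a median of 4.52 in Zfp148gt/+APCMin/+ mice and from 4.65 to 5.56 with a median of 5.28 in controls. All but mouse 892 (4.82) lay below every control. The *Epha1* difference was -0.62 (95% confidence interval -0.99 to -0.26, limma unadjusted p = 0.00274, adjusted p = 0.705, exact permutation p = 0.0087). *Epha4*, which binds ephrins of both types, ran from 4.08 to 4.75 with a median of 4.24 and from 4.34 to 5.25 with a median of 4.74, with 4 of 6 Zfp148gt/+APCMin/+ mice below every control and mouse 911 (4.75) within the control range. The *Epha4* difference was -0.46 (-0.79 to -0.14, limma unadjusted p = 0.00872, adjusted p = 0.725, exact permutation p = 0.0238). With fibroblast and matrix markers as a covariate *Epha1* was at -0.39 (-0.87 to 0.080) and *Epha4* at -0.31 (-0.75 to 0.13). With array IQR as a covariate they were at -0.47 (limma unadjusted p = 0.0765) and -0.37 (limma unadjusted p = 0.118), and neither call was nominal with either covariate. Both covariates differed by genotype, so their part and that of genotype cannot be told apart. *Epha3* was dim and had a higher mean in Zfp148gt/+APCMin/+ mice, 2.45 against 2.16, or 0.30 higher (0.038 to 0.55, limma adjusted p = 0.725), and 0.25 (-0.014 to 0.52) with centred arrays. The *Epha3* nominal call was also lost after another quantile normalization (0.24) and without mouse 888, 889, 783, 893 or 911 (0.24 to 0.28). It held with array IQR as a covariate, at 0.49 (0.15 to 0.84), and with fibroblast and matrix markers, at 0.46 (0.12 to 0.79). *Epha10*, named after its values were seen, had the second smallest exact permutation p of the 12, 0.0216, at a difference of 0.17 (-0.0038 to 0.35) and a limma unadjusted p of 0.0544.

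**Figure D4:**
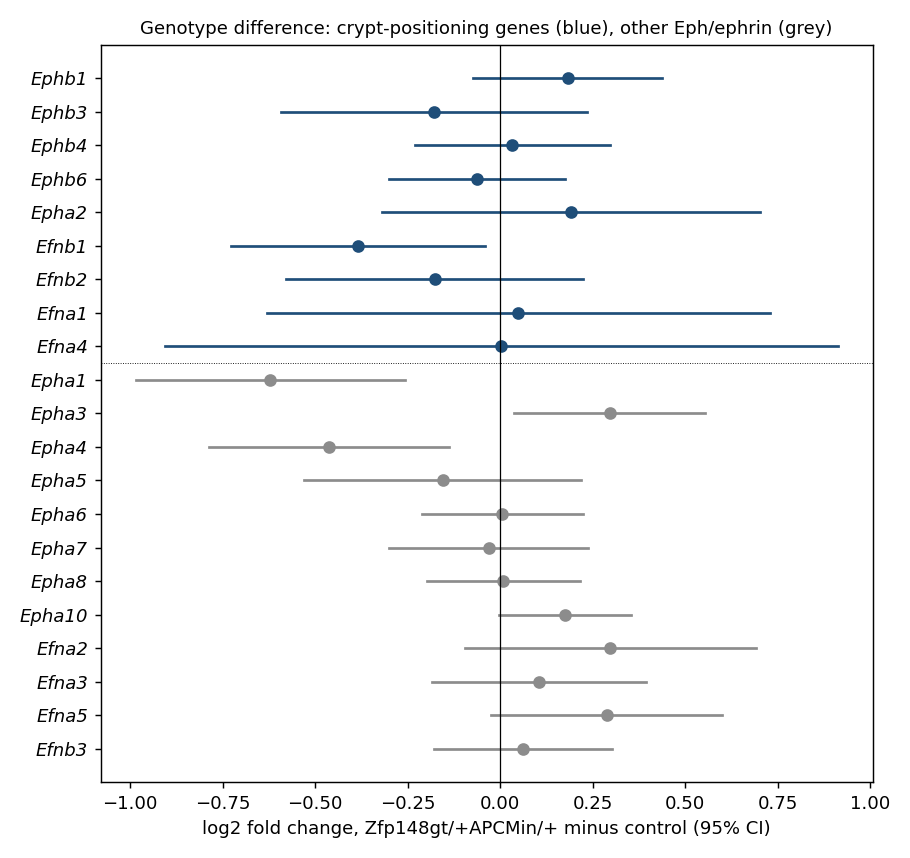
Log2 fold change, Zfp148gt/+APCMin/+ minus control, with its 95% confidence interval from limma, for the 9 crypt-positioning genes (above the dotted line) and the other 12 Eph receptors and ephrins. The interval of *Efnb1* lies below 0, as do those of *Epha1* and *Epha4*, that of *Epha3* lies above 0, and none passed adjustment over all rows.

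Downstream, of 36 genes that carry or modify Eph and ephrin signals, 35 were measured, and the means of 25 were lower and of 10 higher in Zfp148gt/+APCMin/+ mice, with 0 past the threshold in limma and 1 nominally lower. The median log2 fold change was -0.043, beside -0.039 over rows above the median signal, and 3 of the 35 lay below that median. Of rows above the median signal 58.4% had a lower mean and 5.08% were nominally lower. *Pik3ca*, the catalytic chain of phosphoinositide 3-kinase, was at -0.34 (95% confidence interval -0.67 to -0.0062), or -0.086 (-0.53 to 0.36) with array IQR and -0.20 (-0.66 to 0.25) with fibroblast and matrix markers as a covariate. Its nominal call was lost under 7 of 12 alternatives, these included, and when any 1 of mice 782, 885, 895, 899, 783, 892 and 897 was left out, the value lying between -0.41 and -0.26 with 1 mouse left out. *Grb10*, an adaptor of receptor tyrosine kinases, was at 0.26 (-0.027 to 0.55). For *Adam10*, the protease that cleaves ephrins and E-cadherin at Eph contacts, the value was -0.042 (-0.31 to 0.23), and for *Cdh1*, E-cadherin, -0.14 (-0.36 to 0.085). Of 14 measured crypt target genes of β-catenin, the pathway that induces *Ephb3*, 5 had higher and 9 lower means and 0 passed, with 1 nominally lower and a median of -0.10. These stand beside the same shares of brighter rows, 58.4% with a lower mean and 5.08% nominally lower, and a median of -0.039 over those rows. Of the 14 genes, 2 lay below the median signal. *Rnf43*, which removes Wnt receptors, was at -0.75 (-1.18 to -0.33, limma adjusted p = 0.705). With array IQR as a covariate *Rnf43* was at -0.28 (-0.76 to 0.20) and with fibroblast and matrix markers at -0.58 (-1.16 to 0.0016), the nominal call being lost under both. Here too these covariates cannot be told apart from genotype, by which both differed. The transcription factor *Myc* was at -0.23 (-0.55 to 0.093).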

How the data were processed

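The authors hybridized RNA from laser-microdissected crypt-enriched tissue of 12 mice to Affymetrix Gene ST arrays and normalized them by RMA in Affymetrix Expression Console, as the submitters' processing notes also state. RMA corrects background, aligns the distributions of the arrays and summarises the probes of a transcript cluster. The deposited values, 0.85 to 13.24, were read as log2 from their range, since no source states the log base, and ratios rest on it. No version of the software and no build was found in what was read. An array gives no depth, so precision rests on how many mice were used. RMA signals depend on the probes of each gene, and across genes they were set only against the median of all rows, as a rough guide to which were dim.

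Gene symbols came from the array's annotation, where 23521 of 33793 rows carry 1 symbol, and for a gene with several rows the brightest over all arrays was used. Genotypes were compared by lmFit and eBayes (limma 3.58.1, R version 4.3.3), Zfp148gt/+APCMin/+ minus Zfp148+/+APCMin/+, over all rows with Benjamini-Hochberg adjustment, a threshold of 0.05 and no covariate or filter, following the methods, which state limma with that correction. The fit was also tested on simulated data. Single genes were compared by exact permutation over the 924 splits into 6 and 6, and relations by permutation tests with 100000 resamples. Python 3.11.15 and pandas 2.3.3 joined the tables, and matplotlib 3.10.9 drew the plots. Named genes outside the 9 are those of smallest p, 3 among other Eph and ephrin genes, 3 among signaling genes and 2 among β-catenin targets, besides the 3 genes most like *Ephb3*. Of the signaling genes 1 is not reported here. The fibroblast and matrix markers *Col1a2* and *Col1a1* are the 2 of smallest p in their list. *Adam10*, *Cdh1*, *Olfr467* and, as examples, *Alpi* and *Apoa4* are not covered by these rules and were picked with their values in view. The genes and lists were chosen with earlier results of these data known. Labels name the mice separately, and the mouse was the unit of every test. Litter entered none of the tests.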

Additional observations from a re-analysis of the deposited data

Results flagged for a closer look

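Single mice were compared with the rest of their group by the gap to the nearest mouse over the range of the group, in 36 groups of 6 from 18 genes, and 2 passed the 95% limit of Dixon's test. Chance gives about 5% of such groups. *Ephb6* in control mouse 889 was 3.08, with the next control at 2.64 (gap 0.742 of the range). The T cell marker mean of mouse 889 was 4.52, where the controls ran from 3.39 to 4.95 and only mouse 895 was higher. In mouse 895 *Ephb6* was 2.59, below the control mean of 2.66. A part of T cells in this *Ephb6* signal was not tested. *Myc* in Zfp148gt/+APCMin/+ mouse 893 was 7.19, with the next at 6.89 (gap 0.794 of the range).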

How the results depend on the processing

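Of the 9 genes 0 passed under any of 12 alternatives or with any mouse left out. The count at an unadjusted p under 0.05, 1 in the main comparison (*Efnb1*), was 0 after another quantile normalization, with array weights, and with fibroblast and matrix markers, endothelial markers or array IQR (the interquartile range) as a covariate. It was 0 to 2 with 1 mouse left out, being 0 without mouse 782, 895, 891, 892 or 897 and 2 without mouse 889, and the cause was not tested. By the exact permutation test it was 1, 0 after another quantile normalization and 0 to 1 with 1 mouse left out, being 1 without mouse 889, 783 or 911. Over all features 0 passed under the 11 alternatives that tested it by row (1 of them on rows above the median signal and 1 adjusted over single-symbol rows), and 0 to 1 with 1 mouse left out, the 1 being *Olfr467* (log2 fold change 1.20, limma adjusted p = 0.00692) without control mouse 885. Of 17 relations 0 passed, but 1 did with the interquartile range regressed out, *Ephb3* with *Efnb2*, an alternative chosen after seeing the data. Signs turned for *Ephb4*, to -0.011 with centred arrays, -0.067 with fibroblast and matrix markers, -0.023 with endothelial markers and -0.22 with the interquartile range. For *Efna4* they turned to -0.040 with centred arrays, -0.028 with array weights, -0.00061 with villus enterocyte markers and -0.35 with the interquartile range. *Ephb1* turned to -0.039 with fibroblast and matrix markers and -0.012 with the interquartile range, and *Efnb2* to 0.13 with the latter. With 1 mouse left out the log2 fold change lay between -0.022 and 0.12 for *Ephb4*, -0.11 and 0.021 for *Ephb6*, -0.14 and 0.21 for *Efna1* and -0.36 and 0.18 for *Efna4*. *Ephb1* and *Ephb6* have no value among rows above the median signal alone. No paired analysis was made. The paper states that littermates served as controls, but the sample titles give a mouse number and no litter.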

Other observations

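Among 12844 genes with a mean signal above the median of all rows, those whose deviations from the genotype mean went most closely with *Ephb3* over the 12 mice were *Gnl3* (r = 0.948), which encodes the nucleolar protein nucleostemin of proliferating cells, 2510002D24Rik (r = 0.943) and *Rcc2* (r = 0.929), a regulator of chromosome segregation. Their log2 fold changes were -0.21, 0.24 and -0.064. These are the highest of many correlations and describe these mice only.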
